A study of Mus musculus with 6 samples.

Results

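The genes described are 34 members of the unfolded protein response and of the machinery that folds proinsulin in the endoplasmic reticulum (ER), out of 21887 protein-coding genes in the RefSeq annotation. They were chosen by name, as known genes of this pathway. For each gene, a territory was taken as its RefSeq span plus 10 kb on either side, and the open chromatin called in that territory was measured in every library. All 34 passed the filter on low values.

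Pancreatic β-cells of the mouse were profiled by ATAC-seq, which reads accessible DNA from where the transposase Tn5 can insert adapters. The Chd4 knockout group (genotype label Chd4KO, written Chd4Db in the design text) and the control group (genotype label Control) each had 3 libraries, numbered 1 to 3. The protein Chd4 is a helicase that moves nucleosomes as the motor of the NuRD complex. All mice of both groups had received tamoxifen, so the controls carry that exposure too. Islets were dispersed and Tomato+ cells were collected by flow cytometry, with 27000 to 80000 cells giving 14000 to 45000 nuclei, and fragments over 600 bp were excluded. The sources used here do not give what drives recombination and the fluorescent label, nor the age of the mice. Nothing in the labels ties each library to its own animal, so p-values measure only how far these samples spread, which may be technical. In a sorted population, fewer cells with an open site and a less open site per cell cannot be told apart.

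Proinsulin enters the ER as it is made, and β-cells carry an unusually heavy load of this client protein. Chaperones hold it, disulfide isomerases and ER oxidases form its disulfide bonds, and molecules that fail to fold are sent back to the cytosol for degradation. When unfolded protein builds up, the sensors Atf6, Ern1 (IRE1α) and Eif2ak3 (PERK) activate the transcription factors cleaved ATF6, XBP1 and ATF4, which raise the chaperones and, under lasting stress, the apoptotic factor Ddit3 (CHOP).

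The best known DNA element of this response, the ER stress response element (ERSE), was present in 10 of 30 member promoters and lay under open chromatin in every library. RefSeq (GRCm38.p6, the assembly that mm10 names) gave promoter sequence for 30 of the members. Its promoters run from 250 bases before to 50 bases after the gene start and number 32851. ERSE was searched on both strands as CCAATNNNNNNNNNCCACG, where N is any base. It was found in 10 of the 30 members (33.3%), in 37 of all 27025 genes with promoter sequence (0.137%) and in 39 of all promoters (0.119%). The copies are shown because they are the sites through which ATF6 and XBP1 are known to act, each read in the direction of the motif, with capitals marking the fixed letters:
Hspa5: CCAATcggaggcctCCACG
Calr: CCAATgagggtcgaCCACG
Derl3: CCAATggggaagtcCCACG
Hsp90b1: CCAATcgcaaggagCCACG
Hsp90b1: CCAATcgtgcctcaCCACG
Canx: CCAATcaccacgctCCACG
Pdia6: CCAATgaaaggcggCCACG
Ero1b: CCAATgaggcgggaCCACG
Dnajc3: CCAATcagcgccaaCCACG
Creld2: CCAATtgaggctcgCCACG
Syvn1: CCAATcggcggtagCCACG
Hsp90b1 held 2 copies, which are its separate lines, and each of the other 9 held 1. ERSE-II, searched on both strands as ATTGG and CCACG with 1 base between them, was found in 12 of all promoters (0.0365%) and in 2 members, Herpud1 and Dnajb11:
Herpud1: ATTGGgCCACG
Dnajb11: ATTGGcCCACG
The UPR element TGACGTGG was in 222 promoters (0.676%) and in 0 of the 30 members. The CEBP-ATF element TGATGNAA, bound by ATF4 and CHOP dimers, was in 1304 promoters (3.97%), among them Herpud1 and Trib3. The CRE letters TGACGTCA, searched after the values had been seen, were in 588 promoters (1.79%) and in 1 member, Ppp1r15a. In the members, no match of one motif overlapped a match of another. A match describes letters only, and no match says only that the letters are not in that window.

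Every ERSE, ERSE-II, CEBP-ATF and CRE match in a member was covered by a peak in all 6 libraries. The searched window lies at the gene start, where all 34 members had a region called in all 6 libraries. The cover therefore says little about the elements themselves. The 250 bases before the start are shown for 5 members whose elements the results refer to, 5′ to 3′ on the gene's strand, with capitals on the fixed letters of ERSE in Hspa5 (chr2:34771840-34772089, plus strand), Hsp90b1 (chr10:86705445-86705694, minus strand) and Ero1b (chr13:12565633-12565882, plus strand), of ERSE-II in Herpud1 (chr8:94386179-94386428, plus strand) and of CRE in Ppp1r15a (chr7:45526269-45526518, minus strand):
Hspa5: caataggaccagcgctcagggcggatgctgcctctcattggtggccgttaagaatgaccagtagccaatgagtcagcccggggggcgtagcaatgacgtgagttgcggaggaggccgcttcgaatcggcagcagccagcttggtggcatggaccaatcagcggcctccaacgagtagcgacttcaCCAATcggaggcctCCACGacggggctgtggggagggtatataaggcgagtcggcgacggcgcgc
Hsp90b1: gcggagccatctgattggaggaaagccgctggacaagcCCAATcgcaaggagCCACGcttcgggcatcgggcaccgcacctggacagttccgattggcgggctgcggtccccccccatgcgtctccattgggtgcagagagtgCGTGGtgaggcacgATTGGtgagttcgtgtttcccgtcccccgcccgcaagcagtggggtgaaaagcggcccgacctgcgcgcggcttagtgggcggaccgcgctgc
Ero1b: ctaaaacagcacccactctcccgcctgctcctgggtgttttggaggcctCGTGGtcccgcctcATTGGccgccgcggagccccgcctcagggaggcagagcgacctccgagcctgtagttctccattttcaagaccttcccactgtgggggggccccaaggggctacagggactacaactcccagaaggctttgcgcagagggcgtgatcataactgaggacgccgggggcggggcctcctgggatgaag
Herpud1: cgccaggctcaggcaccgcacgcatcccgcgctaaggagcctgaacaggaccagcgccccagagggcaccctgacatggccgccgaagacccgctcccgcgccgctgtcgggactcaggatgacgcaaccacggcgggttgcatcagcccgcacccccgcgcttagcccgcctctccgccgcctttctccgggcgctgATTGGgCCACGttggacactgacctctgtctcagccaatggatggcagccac
Ppp1r15a: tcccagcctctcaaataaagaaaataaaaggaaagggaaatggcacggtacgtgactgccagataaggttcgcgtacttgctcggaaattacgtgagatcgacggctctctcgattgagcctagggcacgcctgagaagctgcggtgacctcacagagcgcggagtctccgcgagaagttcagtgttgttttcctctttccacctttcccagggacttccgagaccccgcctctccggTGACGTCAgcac
In Ero1b and in the copy of Hsp90b1 nearer to the start, ERSE lies on the strand opposite to the gene and is read here as its complement. The ERSE of Hspa5 lies 65 to 47 bases before the start. The peak summit, the base of highest signal, was 191, 192 and 192 bases before the Hspa5 start in knockout libraries 1 to 3 and 191 bases before it in all 3 control libraries. The summit therefore sat in the same place, upstream of the element, in both groups. In Ppp1r15a, a phosphatase subunit that lifts the PERK block on translation, the summit lay at the same base, 40 bases before the start, in the 3 knockout and the 3 control libraries. In Herpud1 the summit lay 44, 44 and 70 bases before the start in knockout libraries and 44 bases before it in every control library, with the ERSE-II at 52 to 42 bases before the start.

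**Figure D1:**
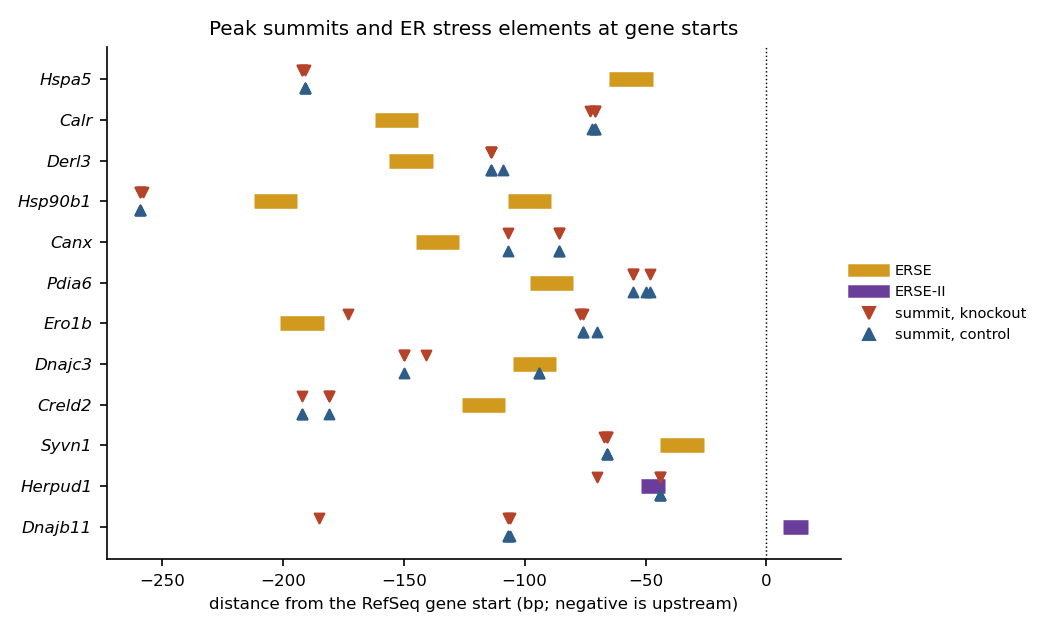
Position of ERSE (ochre) and ERSE-II (purple) matches and of peak summits in the promoters of 12 members, in bp from the RefSeq gene start, with 1 triangle per library (red above the line for 3 Chd4 knockout libraries, blue below it for 3 control libraries; equal summits overlap). Most knockout and control summits coincide, as at Hspa5, where they lie 191 or 192 bp upstream in all 6 libraries.

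The gene starts of the pathway were open in both groups. A region called in all 6 libraries lay within 1 kb of the start of 34 of 34 members, against 63.5% of all 21887 protein-coding genes and 90 of 92 other genes of ER stress and ER folding. For Atf6, Derl1, Hyou1 and Manf, either end of the span was used. Member start peaks averaged 521 to 1870 bp in width in knockout libraries (median of the members 1088 bp) and 541 to 1867 bp in control libraries (median 1111.5 bp). They were among the strongest of each list, with the authors' −log10 q at the 83.5th to 100th percentile within its own list (median 98.8). The summit stayed within 10 bp across all 6 libraries at 15 members and on the same base at 4, which were Atf4, Xbp1, Sdf2l1 and Ppp1r15a. The widest spread of summits at a start was 227 bp.

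At 32 of the 34 starts the width of the shared region was not past the threshold of the region test. That test was limma on log2 bases under peaks, unscaled, over the 75312 regions called in all 6 libraries, with a Benjamini-Hochberg adjusted p under 0.05. At the start of Hspa5, which encodes the chaperone BiP, knockout libraries had 1213, 1136 and 1120 bp under the peak and control libraries 1205, 1290 and 1226 bp. The groups overlap there, with a difference of -0.10 ± 0.04 on the log2 scale (SE; limma adjusted p = 0.234). The start of Xbp1 had 1885, 1843 and 1764 bp in knockout libraries and 1862, 1878 and 1861 bp in control libraries, which also overlap. The start of Ero1b, an ER oxidase gene with its highest levels in pancreas, had 1036, 1051 and 1046 bp in knockout libraries and 1007, 1007 and 1010 bp in control libraries. The log2 fold changes of all 34 starts ran from -0.22 to 0.28.

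The 2 starts that passed, those of Ern1 and Mbtps1, were wider in the knockout libraries. Of the 13895 genes with such a region at the start, 2.18% passed as wider and 2.61% as narrower. The start region of Ern1 (chr11:106487202-106488338) had 1072, 1120 and 1083 bp under peaks in knockout libraries and 915, 892 and 898 bp in control libraries. All 3 knockout values lie above all 3 control values, and the log2 fold change was 0.28 ± 0.03 (limma adjusted p = 0.0130, and 0.0314 to 0.0481 leaving out any 1 library). The start region of Mbtps1 (chr8:119558085-119559298), which encodes the site-1 protease that cleaves ATF6 in the Golgi, had 1031, 1119 and 983 bp in knockout libraries and 876, 883 and 862 bp in control libraries. These groups do not overlap either, and the log2 fold change was 0.26 ± 0.05 (limma adjusted p = 0.0497, and 0.0559 to 0.126 leaving out any 1 library). With widths scaled to each library's total, the changes were 0.10 for Ern1 (limma adjusted p = 0.255) and 0.08 for Mbtps1 (limma adjusted p = 0.345), neither past the threshold. The 250 bases before these 2 starts follow, since they lie inside the wider peaks (Ern1 at chr11:106487797-106488046 and Mbtps1 at chr8:119558762-119559011, both on the minus strand, 5′ to 3′). Capitals mark the stretch between the outermost of the 6 summits:
Ern1: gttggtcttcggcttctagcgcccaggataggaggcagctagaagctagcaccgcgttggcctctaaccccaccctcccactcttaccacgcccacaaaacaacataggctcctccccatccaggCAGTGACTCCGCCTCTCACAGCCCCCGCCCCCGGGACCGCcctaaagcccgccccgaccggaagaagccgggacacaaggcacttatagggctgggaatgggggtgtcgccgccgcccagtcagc
Mbtps1: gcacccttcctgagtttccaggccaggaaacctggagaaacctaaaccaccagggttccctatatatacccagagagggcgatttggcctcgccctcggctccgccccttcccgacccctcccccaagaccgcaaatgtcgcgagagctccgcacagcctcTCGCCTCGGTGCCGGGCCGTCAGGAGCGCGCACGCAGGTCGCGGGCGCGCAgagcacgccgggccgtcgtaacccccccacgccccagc
None of the 5 motifs was found in either promoter. In Ern1 the summits lay 125, 121 and 124 bases before the start in knockout libraries and 121, 87 and 86 bases before it in control libraries.

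The deposited lists of the whole series held 119088 to 124125 peaks over 65.8 to 69.1 Mb in knockout libraries and 100109 to 110693 peaks over 58.0 to 63.8 Mb in control libraries. Depth in reads is unknown, and the number of peaks called depends on it. Covered length, the bases under peaks in a territory, was therefore scaled to the mean total of all libraries, and the unscaled values are given beside it. Scaling moved the median log2 fold change of all genes to -0.09, against 0.06 unscaled, a shift of 0.15, so every scaled change below is relative to that shift. The territory of Chd4 itself had 4771 to 5537 bp in knockout libraries and 5291 to 5990 bp in control libraries (log2 fold change -0.16 ± 0.08, limma adjusted p = 0.166), and its start was open in all 6. A total over the territory need not show a loss of exons, so this checks nothing about the labels.

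Relative to each library's total, the territories of Atf4, Xbp1, Pdia4, Sel1l, Eif2ak3, Hyou1 and Ero1b had less open chromatin in the knockout libraries and that of Mbtps1 had more. That is 7 of 34 members lower (20.6%) and 1 higher (2.94%), against 14.6% lower and 7.57% higher of the 17711 genes tested, by limma on log2(scaled covered length + 300 bp) with an adjusted p under 0.05. The other 26 were not past the threshold. The median log2 fold change of the members was -0.14, and that of all genes tested was -0.09. All 3 knockout libraries lay below all 3 control libraries at 12 members (35.3%, against 32.7% of all genes tested) and above them at 2 members (5.88%, against 13.1%), Mbtps1 and Canx. Unscaled, 4 members were higher, against 14.6% of all genes, and 0 were lower, against 2.88% of all genes. The 4 were Mbtps1, Canx, Pdia3 and Syvn1, and the unscaled median was 0.02 for the members and 0.06 for all genes. Summed over the 34 members, scaled covered length was 115848 to 116585 bp in knockout libraries and 123953 to 133116 bp in control libraries. Unscaled, it was 119723 to 126486 bp in knockout libraries and 117077 to 124118 bp in control libraries, which overlap. The count of lower members was 3 without knockout library 1 or 2, 5 without knockout library 3, 2 without control library 1 or 3 and 5 without control library 2. Over the gene spans alone none of the 8 passed (limma adjusted p = 0.0755 to 0.194), and the 4 members lower there were Hspa5 (-0.24), Dnajb9 (-0.41), Dnajb11 (-0.78) and Ppp1r15a (-0.72; limma adjusted p = 0.0104 to 0.0378).

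**Figure D2:**
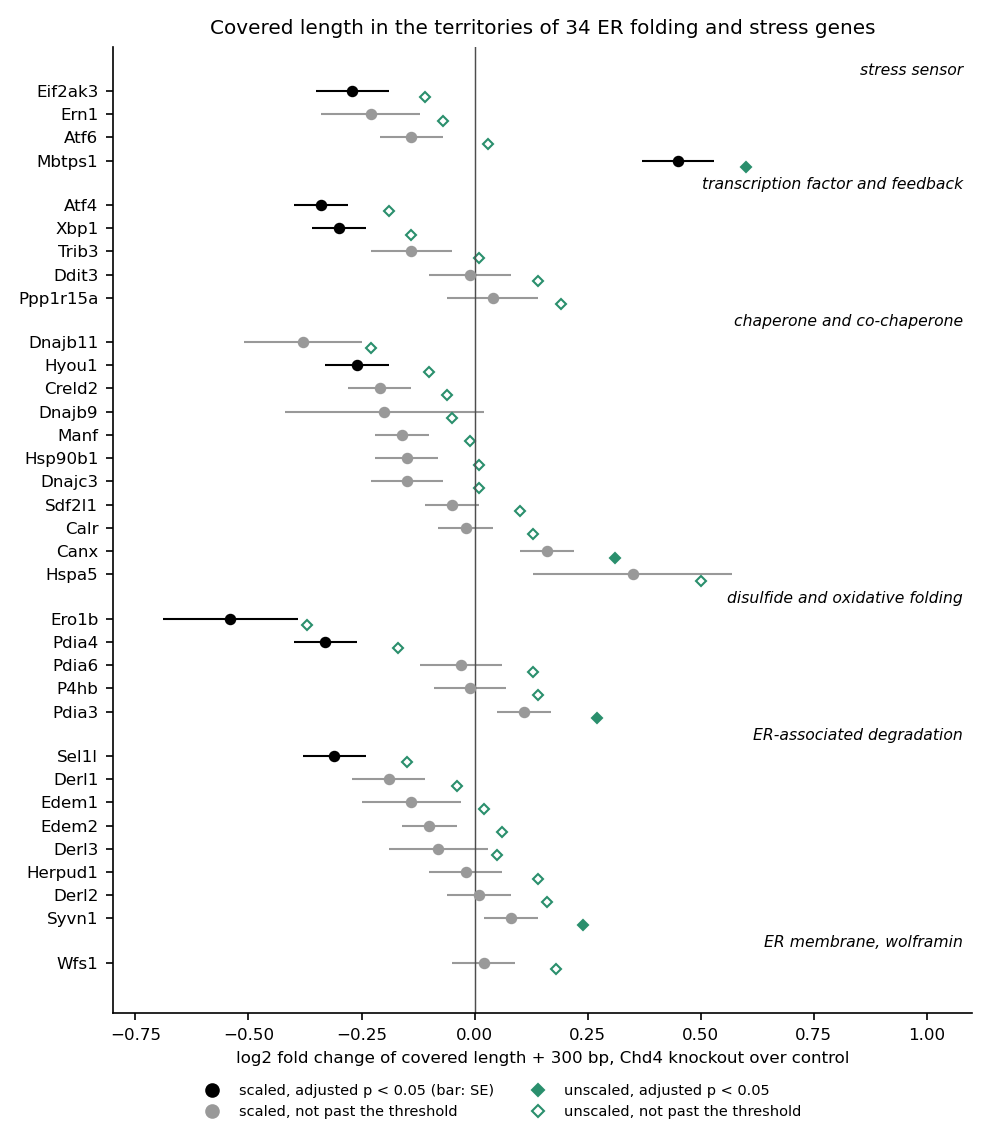
Log2 fold change of covered length + 300 bp, Chd4 knockout over control, for the 34 members by role (circles: scaled, with SE bars, black where the limma adjusted p is under 0.05; green diamonds: unscaled, filled where it is). Scaled values run from -0.54 at Ero1b to 0.45 at Mbtps1, and each unscaled value lies to the right of its scaled value.

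The summed scaled covered length of marker genes of several cell types differed between the groups; a start without a peak in any library is called closed here. Acinar marker territories summed to 7592 to 8894 bp in knockout libraries and 6330 to 6388 bp in control libraries, but 8 of the 10 starts had no peak in any library, among them Cpa1, Cpb1, Cela1 and Ctrb1. Of the 6 acinar markers tested, 2 were higher and 0 were lower. The 2 were Ctrb1 (log2 fold change 1.09, limma adjusted p = 0.00414) and Cela2a (0.59, limma adjusted p = 0.0217). Endothelial marker territories summed to 12350 to 13670 bp in knockout libraries and 10507 to 11074 bp in control libraries, with 3 of 6 starts closed in every library (Pecam1, Cdh5 and Emcn). Within that list Erg was higher (log2 fold change 0.90, limma adjusted p = 0.00535) and Emcn lower (-1.10, limma adjusted p = 0.0417). Mesenchymal markers summed to 10689 to 12145 bp in knockout and 10203 to 10461 bp in control libraries, with 2 of 6 starts closed throughout (Dcn and Acta2). Most of that difference lay in Pdgfrb, with a mean of 1978 bp in knockout and 1020 bp in control libraries, while Col1a2 (0.04) and Pdgfra (0.02) had log2 fold changes near 0. β-cell markers summed to 53182 to 54965 bp in knockout libraries and 59737 to 67640 bp in control libraries, with 12 of 13 starts open in all 6. α-cell markers summed to 9668 to 11118 bp in knockout libraries and 12538 to 12713 bp in control libraries, and the start of Gcg was closed in all 6. Within that list Irx1 (log2 fold change -0.63, limma adjusted p = 0.00655) and Irx2 (-0.51, limma adjusted p = 0.003) were lower. The δ-, γ- and ε-cell markers summed to 8426 to 8776 bp in knockout and 9227 to 10742 bp in control libraries, with 1 of 5 starts closed throughout (Ppy). Among them Hhex was lower (log2 fold change -0.61, limma adjusted p = 0.00266). Duct markers, with 6 of 6 starts open in all libraries, summed to 18133 to 21140 bp in knockout and 20171 to 22286 bp in control libraries, which overlap. Leukocyte markers summed to 8331 to 9456 bp in knockout and 9005 to 9424 bp in control libraries, which overlap, with 6 of 7 starts closed throughout. Unscaled, the knockout sums were 7841 to 9413 bp for acinar, 12992 to 14831 bp for endothelial and 11597 to 12543 bp for mesenchymal markers. The control sums were 5761 to 6381, 9563 to 10817 and 9309 to 10411 bp in that order, so the groups did not overlap at these 3 lists. Unscaled β-cell sums overlap, at 56135 to 59633 bp in knockout and 56801 to 61563 bp in control libraries, as do those of the α-cell, δ-, γ- and ε-cell, duct and leukocyte lists. Single endocrine markers still passed unscaled. Ins1 (-0.46, limma adjusted p = 0.00585), Irx1 (-0.5, limma adjusted p = 0.0186), Irx2 (-0.35, limma adjusted p = 0.0071) and Hhex (-0.46, limma adjusted p = 0.0095) were lower. Pdx1 was higher (0.26, limma adjusted p = 0.0257). The part of other cells in the results on the members was not tested.

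Of the 4 stress sensor genes, the proteins that detect unfolded protein or activate its sensor, 1 was higher, 1 was lower and 2 were not past the threshold. Of all genes tested, 14.6% were lower and 7.57% higher. The roles hold too few genes for their counts, here and below, to be told apart from these shares. A difference between roles was not tested. Mbtps1 (chr8:119508151-119558864) had 2521, 3012 and 2579 bp of scaled covered length in knockout libraries and 1967, 1869 and 1851 bp in control libraries. All knockout values exceed all control values, over 4, 5 and 4 peaks in knockout and 3, 3 and 4 peaks in control libraries. The log2 fold change was 0.45 ± 0.08 (limma adjusted p = 0.00946) and 0.60 unscaled (limma adjusted p = 0.00849), and it passed in 6 of 6 fits that left out 1 library (limma adjusted p = 0.0161 to 0.0389). It did not pass with 50 kb on either side (0.09, limma adjusted p = 0.315) or with the 50000 strongest peaks of each library (0.32, limma adjusted p = 0.211).

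Eif2ak3 (chr6:70844484-70905241), the kinase PERK, whose loss in mice causes β-cell failure, had 5394, 4486 and 4709 bp in knockout libraries and 6157, 5593 and 6034 bp in control libraries. The knockout values are all below the control values, over 10, 6 and 6 peaks in knockout and 9, 8 and 8 peaks in control libraries. The log2 fold change was -0.27 ± 0.08 (limma adjusted p = 0.0443) and -0.11 unscaled (limma adjusted p = 0.337). The call held only without knockout library 1 among the 6 fits that left out a library, whose limma adjusted p ran from 0.0367 to 0.127. With the 50000 strongest peaks the sign turned, to 0.14 (limma adjusted p = 0.181).

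Ern1 (chr11:106397620-106487796), the kinase and RNase IRE1α that splices Xbp1 RNA, had 8052, 9332 and 6882 bp in knockout libraries and 10239, 9542 and 8728 bp in control libraries. The groups overlap, and the log2 fold change of -0.23 ± 0.11 was not past the threshold (limma adjusted p = 0.155). Atf6 (chr1:170704457-170868585), the ER-tethered transcription factor, had 9444, 9455 and 8291 bp in knockout libraries and 9555, 10139 and 10217 bp in control libraries. The groups do not overlap, and the log2 fold change was -0.14 ± 0.07 (limma adjusted p = 0.181) and 0.03 unscaled.

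The territories of Atf4 and Xbp1, which encode the transcription factors that PERK and IRE1α switch on, both had less scaled covered length in the knockout libraries. Those of Ddit3, Trib3 and Ppp1r15a were not past the threshold. Atf4 (chr15:80255184-80257545) had 2370, 2314 and 2537 bp in knockout libraries and 3236, 3133 and 3039 bp in control libraries. Every knockout library had fewer peaks there, 3, 3 and 4, than the 5 of each control library. On the log2 scale the change was -0.34 ± 0.06 (limma adjusted p = 0.0109), and -0.19 unscaled (limma adjusted p = 0.0681). Xbp1 (chr11:5520641-5525993) had 2857, 2843 and 2787 bp in knockout libraries and 3577, 3634 and 3411 bp in control libraries. Its peaks numbered 3, 3 and 4 in knockout and 4, 5 and 4 in control libraries, and the covered lengths do not overlap. On that scale the change was -0.30 ± 0.06 (limma adjusted p = 0.0134), and -0.14 unscaled (limma adjusted p = 0.207). Both passed in 6 of 6 fits that left out 1 library, with limma adjusted p from 0.0147 to 0.0419 for Atf4 and from 0.0292 to 0.0446 for Xbp1. Neither passed with the 50000 strongest peaks (Atf4 -0.07, limma adjusted p = 0.538; Xbp1 -0.13, limma adjusted p = 0.482) or with 50 kb on either side (-0.15, limma adjusted p = 0.127, and -0.10, limma adjusted p = 0.287). Xbp1 also did not pass with peaks of −log10 q of at least 3 (-0.24, limma adjusted p = 0.0685). Over the gene span alone Atf4 changed by -0.14 (limma adjusted p = 0.117) and Xbp1 by -0.17 (limma adjusted p = 0.0951). The only region reaching into either span was the one at its start. Unscaled, that of Atf4 had 1449, 1428 and 1395 bp in knockout libraries and 1256, 1437 and 1305 bp in control libraries. That of Xbp1 overlaps between groups, as given above. Regions called in fewer knockout than control libraries lay outside both spans, at Atf4 in Mief1 and Rps19bp1.

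Ddit3, which encodes CHOP, had 2603, 3003 and 2998 bp in knockout libraries and 3163, 2896 and 2620 bp in control libraries. The groups overlap at a log2 difference of -0.01 ± 0.09 (limma adjusted p = 0.936), and of 0.14 unscaled. Ppp1r15a had 2578, 2283 and 2273 bp in knockout libraries and 2417, 1979 and 2530 bp in control libraries, with a log2 difference of 0.04 ± 0.10 (limma adjusted p = 0.764). Over its own span alone the direction turned, to -0.72 (limma adjusted p = 0.0120).

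**Figure D3:**
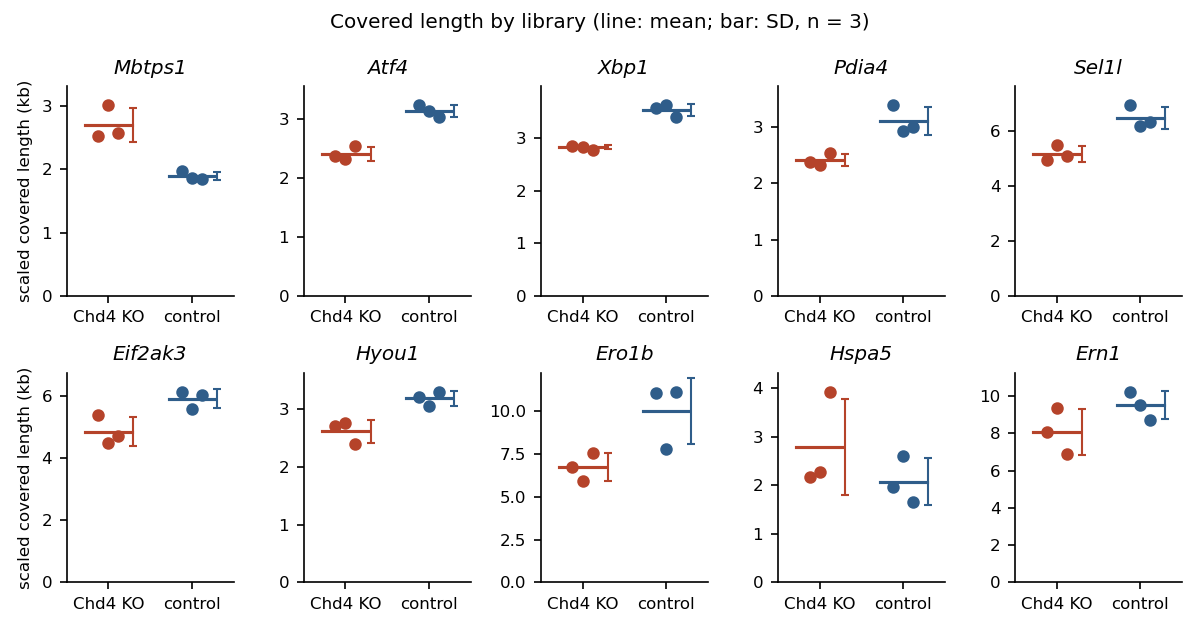
Scaled covered length in kb per library for the 8 members past the threshold and for Hspa5 and Ern1, with Chd4 knockout libraries in red on the left and control libraries in blue on the right (points: libraries; line: mean; bar: SD, n = 3). Knockout libraries lie above control libraries at Mbtps1 and below them at the other 7 that passed, while the groups overlap at Hspa5 and Ern1.

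Of the 11 chaperones and co-chaperones, 1 was lower, 0 were higher and 10 were not past the threshold, with log2 fold changes from -0.38 to 0.35. Hspa5 (chr2:34772090-34776529), the gene of BiP, had 2161, 2269 and 3926 bp in knockout libraries and 1967, 2604 and 1645 bp in control libraries. Knockout library 3 stands above the other 5 and the groups overlap, over 5, 4 and 7 peaks in knockout and 3, 4 and 2 peaks in control libraries. The log2 fold change was 0.35 ± 0.22 (limma adjusted p = 0.265), and over the gene span alone it turned to -0.24 (limma adjusted p = 0.0378). Library 3 held an 877 bp peak at chr2:34779364-34780240, past the gene end, that no other library had.

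Hyou1 (chr9:44379490-44392369), a large relative of Hsp70 that assists BiP, had 2711, 2765 and 2396 bp in knockout libraries and 3207, 3056 and 3309 bp in control libraries. The groups do not overlap, and the log2 fold change was -0.26 ± 0.07 (limma adjusted p = 0.0384), against -0.10 unscaled (limma adjusted p = 0.392). It passed in 0 of 6 fits that left out 1 library (limma adjusted p = 0.0518 to 0.120). At every region inside the Hyou1 span the groups overlap in unscaled width. The only region of the territory not called in all 6 libraries lay 5609 bp beyond the span, in the neighbor Slc37a4. There knockout libraries had 389, 487 and 0 bp and control libraries 526, 531 and 529 bp. Canx, the lectin chaperone calnexin, had 3159, 3089 and 2938 bp in knockout libraries and 2848, 2619 and 2679 bp in control libraries. All knockout values are above all control values, at a log2 difference of 0.16 ± 0.06 (limma adjusted p = 0.0993) and 0.31 unscaled (limma adjusted p = 0.0172).

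Calr, the soluble lectin chaperone calreticulin, had 3862, 3980 and 3785 bp in knockout libraries and 3985, 3761 and 4096 bp in control libraries, which overlap. Hsp90b1, the ER form of Hsp90, had 2754, 2858 and 2665 bp in knockout libraries and 3326, 3120 and 2823 bp in control libraries, which overlap as well. Their log2 fold changes were -0.02 (limma adjusted p = 0.785) and -0.15 ± 0.07 (limma adjusted p = 0.169), and unscaled 0.13 and 0.01. The 11 members of all roles not given by library, Pdia6, P4hb, Derl3, Dnajb9, Dnajb11, Dnajc3, Sdf2l1, Manf, Creld2, Wfs1 and Trib3, had log2 fold changes from -0.38 to 0.02 and limma adjusted p from 0.0555 to 0.903.

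Of the 5 genes of disulfide formation and oxidative folding, Ero1b and Pdia4 were lower and Pdia3, Pdia6 and P4hb were not past the threshold. With 5 genes, this count cannot be set against the 14.6% lower of all genes tested. Ero1b (chr13:12565818-12609533), whose product passes electrons from the isomerases to oxygen and is known for its part in proinsulin folding, had 6751, 5919 and 7561 bp in knockout libraries and 11063, 7787 and 11126 bp in control libraries. The groups do not overlap, though control library 2 lies near the knockout libraries, over 18, 13 and 17 peaks in knockout and 23, 17 and 23 peaks in control libraries. The log2 fold change of -0.54 ± 0.15 was the lowest of the 34 (limma adjusted p = 0.0366), and was -0.37 unscaled (limma adjusted p = 0.0866). It passed only without knockout library 3 or control library 2 (limma adjusted p over the 6 fits 0.0206 to 0.118). Of the 28 regions in the Ero1b territory, 9 were called in all 6 libraries, 1 was lost and 18 were mixed. Mixed regions were called in some libraries of 1 or both groups. No other protein-coding gene shares the territory.

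Pdia4 (chr6:47796141-47813512), the isomerase ERp72, had 2383, 2330 and 2534 bp in knockout libraries and 3393, 2935 and 3004 bp in control libraries. The groups do not overlap, over 4, 5 and 5 peaks in knockout and 4 peaks in each control library. The log2 fold change was -0.33 ± 0.07 (limma adjusted p = 0.0197) and -0.17 unscaled (limma adjusted p = 0.0835), and it passed only without knockout library 3 or control library 2 (limma adjusted p over the 6 fits 0.0284 to 0.0624). Pdia3, the isomerase ERp57 that works with calnexin and calreticulin, had 4256, 3963 and 4223 bp in knockout libraries and 3805, 3647 and 3993 bp in control libraries, which overlap. The log2 change in Pdia3 was 0.11 ± 0.06 (limma adjusted p = 0.210), and 0.27 unscaled (limma adjusted p = 0.0153).

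Of the 8 genes of ER-associated degradation, Sel1l was lower and 7 were not past the threshold, with log2 fold changes from -0.31 to 0.08. Sel1l (chr12:91806043-91849157), the adaptor of the ubiquitin ligase that clears misfolded proinsulin, had 4947, 5493 and 5100 bp in knockout libraries and 6956, 6206 and 6337 bp in control libraries. The groups do not overlap, over 11, 10 and 11 peaks in knockout and 14, 14 and 12 peaks in control libraries. Its log2 fold change was -0.31 ± 0.07 (limma adjusted p = 0.0197), and -0.15 unscaled (limma adjusted p = 0.197). It did not pass without knockout library 1, control library 1 or control library 3 (limma adjusted p over the 6 fits 0.0298 to 0.0673), or with the 50000 strongest peaks (-0.32, limma adjusted p = 0.398). Syvn1, the ligase Hrd1 itself, had 3712, 4003 and 3936 bp in knockout libraries and 3725, 3522 and 3723 bp in control libraries, which overlap. Its log2 fold change was 0.08 ± 0.06 (limma adjusted p = 0.341), and 0.24 unscaled (limma adjusted p = 0.0310).

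Herpud1, which brings substrates to that ligase, had 4659, 4124 and 4726 bp in knockout libraries and 4953, 4355 and 4406 bp in control libraries. Derl1 and Derl2 encode derlins of the channel back to the cytosol. Derl1 had 2279, 2800 and 2361 bp in knockout libraries and 2689, 2965 and 2933 bp in control libraries, and Derl2 had 2249, 2415 and 2339 bp in knockout libraries and 2192, 2297 and 2492 bp in control libraries. Of the mannosidase-like genes that mark failed glycoproteins, Edem1 had 3507, 3155 and 4015 bp in knockout libraries and 4499, 3744 and 3617 bp in control libraries. Edem2 had 3564, 3672 and 3293 bp in knockout libraries and 3728, 3903 and 3673 bp in control libraries. Among these 5 the groups overlap at all but Edem2, and their log2 fold changes ran from -0.19 at Derl1 (limma adjusted p = 0.136) to 0.01 at Derl2 (limma adjusted p = 0.961). With 50 kb on either side, Derl1 turned to 0.23 (limma adjusted p = 0.0177).

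Single regions appeared or disappeared around the members beside the mostly shared starts. A region was called gained if all 3 knockout libraries and no control library had a peak over it, and lost in the reverse case. Of 281 regions in the 34 territories (2 to 29 a member, median 6.5), 20 were gained (7.12%, against 10.3% of all regions) and 8 were lost (2.85%, against 2.62%). A further 136 were called in all 6 libraries (48.4%, against 48.0% of all regions), and 117 were mixed. Gained regions lay in the territories of 14 members (41.2%, against 33.0% of all genes) and lost ones in those of 8 (23.5%, against 13.1%), while 15 members had neither. These shares of genes were not matched for the number of regions in a territory, unlike the shares of regions given before them. Another protein-coding gene reached into 28 of the 34 territories, and 5 gained regions and 1 lost region lay closer to such a gene. The regions were narrow, with gained ones 261 to 628 bp wide (median 403 bp) and lost ones 287 to 751 bp (median 426 bp). They were weak peaks in the lists that held them. Gained regions ranked between the 1.9th and 76.0th percentile of −log10 q in knockout lists (median 33.0), and lost ones between the 0.0928th and 49.0th in control lists (median 20.1). Regions built anew from the 50000 strongest peaks of each list gave 2 gained and 6 lost, which need not be among those described here. The 8 lost regions became 9 to 17 when 1 library was left out, with 15 without control library 1 and 17 without control library 3, and 14 when a peak had to cover 50% of a region. Leaving out a library loosens the rule for a lost region, so the rise in those fits is no check of the 8.

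Atf6 had 5 of the 20 gained regions, more than any other member, and no lost one. They had 494, 511 and 417 bp under peaks in the knockout libraries at chr1:170697919-170698453, 308, 365 and 308 bp at chr1:170719388-170719752 and 298, 241 and 279 bp at chr1:170765348-170765645. The remaining 2 had 423, 366 and 258 bp at chr1:170777693-170778115 and 293, 321 and 309 bp at chr1:170802304-170802636. All but the one first given, 6004 bp beyond the span, lay inside the gene. Atf6 also had the most regions of any member, 29, of which 11 were called in all 6 libraries.

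The other sensor genes with a gained region were Ern1 and Mbtps1. In Ern1 it lay 33594 bp downstream of the start (chr11:106453658-106454202), with 499, 545 and 359 bp under peaks in the knockout libraries. In Mbtps1 it lay 38291 bp downstream of the start (chr8:119520029-119520470), with 357, 442 and 424 bp in the knockout libraries. Ern1 lost a region further into the gene, 67232 bp from the start (chr11:106420171-106420564), which had 251, 384 and 253 bp in the control libraries. Eif2ak3 lost a region 35356 bp into the gene (chr6:70879871-70880157), with 286, 238 and 263 bp in the control libraries, where its peak in control library 3 was the lowest-ranked of all lost ones.

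The transcription factor and feedback genes had 3 lost regions and 2 gained ones. Atf4 lost one 4286 bp upstream of its start (chr15:80250482-80250898), inside the neighboring gene Mief1, with 355, 417 and 297 bp in the control libraries. Xbp1 lost one 936 bp past its end (chr11:5526929-5527355), with 245, 427 and 218 bp in the control libraries. Ppp1r15a had both kinds within a short distance of its open start. It lost a region 591 bp downstream of the start (chr7:45524927-45525677), with 371, 239 and 471 bp in the control libraries. It gained one 531 bp upstream (chr7:45526799-45527176), in the span of the neighbor Plekha4, with 377, 297 and 334 bp in the knockout libraries. A second gained region lay beyond its end in the neighbor Tulp2 (chr7:45516921-45517181), with 258, 261 and 255 bp in the knockout libraries.

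Of the chaperones, Hspa5, Calr and Canx each had 1 gained region and none of the 11 had a lost one. That of Hspa5 lay 9998 bp downstream of the start, in the neighbor Rabepk (chr2:34782088-34782401), with 314, 283 and 215 bp in the knockout libraries. That of Calr lay 6556 bp upstream (chr8:84853487-84853950), with 454, 464 and 413 bp in the knockout libraries. That of Canx lay 6897 bp upstream (chr11:50332570-50333034), with 465, 311 and 307 bp in the knockout libraries.

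Of the oxidative folding genes, Pdia3 and Pdia4 had a gained region each and Ero1b a lost one. The Ero1b region lay 6709 bp downstream of the start, inside the gene (chr13:12572592-12573016), and had 362, 214 and 425 bp in the control libraries. The Pdia4 region lay 5035 bp beyond the gene end (chr6:47790772-47791106) and had 335, 295 and 299 bp in the knockout libraries. It ranked highest of the gained ones, at the 76.0th, 68.0th and 71.0th percentile of −log10 q in the knockout lists. The Pdia3 region lay 13000 bp downstream of the start (chr2:121426902-121427342), with 271, 262 and 373 bp in the knockout libraries.

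Of the degradation genes, Sel1l had both a gained and a lost region inside its span. The gained one lay 4881 bp downstream of the start (chr12:91843894-91844276), with 383, 359 and 344 bp in the knockout libraries. The lost one lay 30707 bp downstream (chr12:91818021-91818450), with 349, 367 and 379 bp in the control libraries. Syvn1 had 2 gained regions upstream, 8857 bp away (chr19:6037092-6037719; 222, 628 and 200 bp in the knockout libraries) and 6247 bp away (chr19:6039899-6040329; 380, 427 and 215 bp in the knockout libraries). Herpud1 gained one 13543 bp downstream of its start (chr8:94399972-94400267), with 296, 252 and 214 bp in the knockout libraries. Derl2 gained one 7661 bp upstream (chr11:71027502-71028104), only 131 bp from the neighbor Mis12, with 347, 603 and 315 bp in the knockout libraries. Edem2 gained one past its end (chr2:155698610-155698989), with 380, 360 and 202 bp in the knockout libraries. Edem1 lost one 4814 bp past its end (chr6:108864170-108864849), with 563, 484 and 485 bp in the control libraries.

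**Figure D4:**
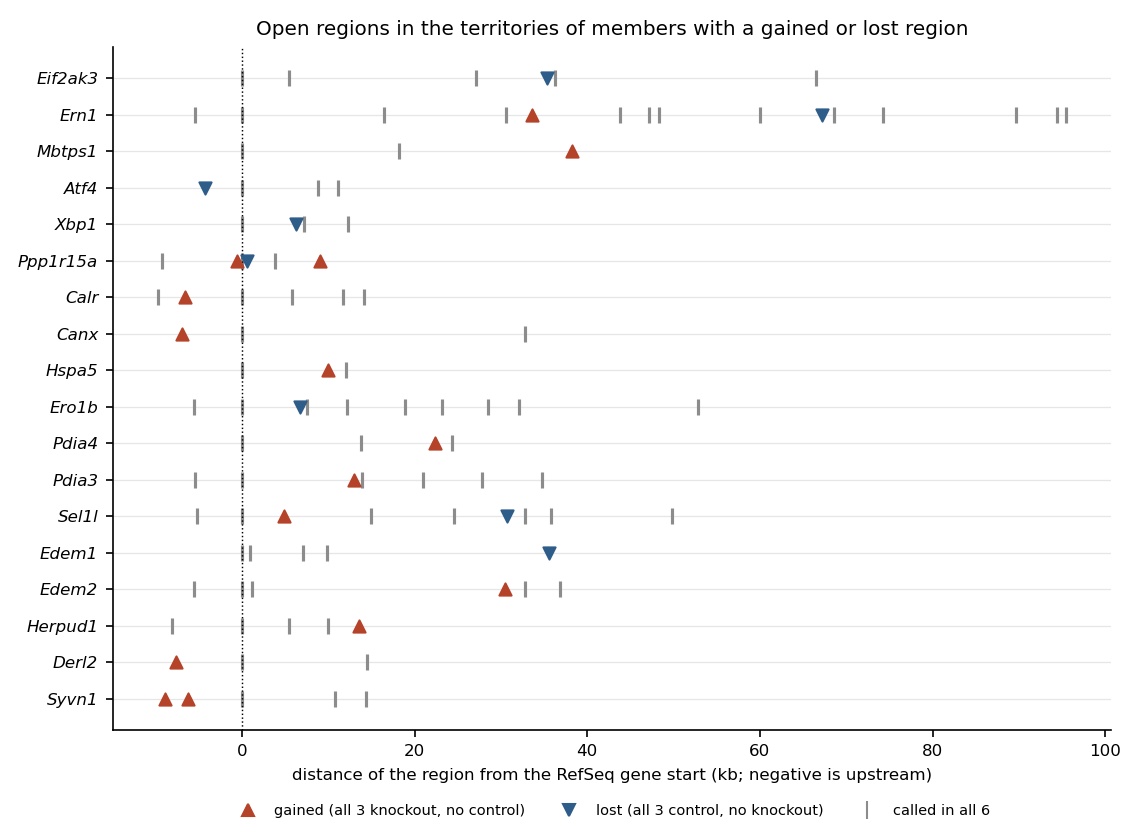
Distance from the RefSeq gene start (kb, negative upstream) of regions in the territories of 18 members with a known start and a gained or lost region (red upward triangles: gained, blue downward triangles: lost, gray ticks: called in all 6 libraries; mixed regions are not drawn). Every member has a gray tick at or near 0 kb, and most gained and lost regions lie kilobases from the start, with those of Ppp1r15a at 531 bp upstream and 591 bp downstream as the nearest.

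Among the 136 regions called in all 6 libraries around the members, 7 were wider in the knockout libraries (5.15%, against 4.37% of the 75312 shared regions) and 3 were narrower (2.21%, against 2.62%). With widths scaled to each library's total, 3 were wider and 18 narrower around the members, and 9342 regions were narrower over the genome, so the balance of wider and narrower turned with the scaling. Their median log2 fold change in width was 0.0, and that of all shared regions was 0.01. Besides the starts of Ern1 and Mbtps1 given above, 8 regions passed.

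Inside Derl1 (chr15:57878086-57878708) the region had 508, 623 and 343 bp under peaks in knockout libraries and 254, 205 and 205 bp in control libraries, a log2 difference of 1.12 ± 0.24 (limma adjusted p = 0.0485). Inside Sel1l (chr12:91823132-91824541), 24616 bp from the start, knockout libraries had 1068, 1308 and 1074 bp and control libraries 575, 588 and 803 bp, a log2 difference of 0.82 ± 0.15 (limma adjusted p = 0.0356). Inside Mbtps1 (chr8:119539992-119540558), 18203 bp from the start, knockout libraries had 500, 443 and 523 bp and control libraries 288, 276 and 311 bp, a log2 difference of 0.74 ± 0.11 (limma adjusted p = 0.0191). At all 3 the knockout libraries lie above the control libraries, and all 3 also passed when widths were scaled. Leaving out 1 library kept the call in 1 of 6 fits for Derl1 (without knockout library 3), 1 of 6 for Sel1l (without control library 3) and 3 of 6 for Mbtps1, which did not pass without knockout library 1, knockout library 3 or control library 1 (limma adjusted p from 0.0337 to 0.137, 0.0289 to 0.0948 and 0.0432 to 0.0697).

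A region 4614 bp beyond the end of Hsp90b1 (chr10:86684933-86686227) had 1276, 1285 and 1247 bp in knockout libraries and 965, 972 and 1005 bp in control libraries. The groups are far apart relative to their spread, with a log2 difference of 0.37 ± 0.03 (limma adjusted p = 0.00652), and 0.20 scaled (limma adjusted p = 0.0634). A region 3060 bp beyond Pdia3 and overlapping the neighbor Ell3 (chr2:121441747-121443253) had 1316, 1476 and 1470 bp in knockout libraries and 1146, 1137 and 1128 bp in control libraries. Its log2 fold change was 0.32 ± 0.05 (limma adjusted p = 0.0231), and 0.15 scaled (limma adjusted p = 0.155), and it passed in 1 of 6 fits that left out 1 library (limma adjusted p = 0.0309 to 0.0701), the one without knockout library 1.

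The 3 narrower regions belonged to Pdia4, Eif2ak3 and Atf6. The one 7007 bp beyond the end of Pdia4 (chr6:47788001-47789134) had 811, 791 and 786 bp in knockout libraries and 1112, 1124 and 1106 bp in control libraries. Its log2 fold change of -0.49 ± 0.03 had the lowest adjusted p of the members' regions (limma adjusted p = 0.00500) and passed in 6 of 6 fits that left out 1 library (limma adjusted p = 0.0163 to 0.0309). The one 5746 bp beyond Eif2ak3 (chr6:70910987-70912690), 399 bp from the neighbor Tex37, had 1119, 1190 and 1201 bp in knockout libraries and 1424, 1621 and 1456 bp in control libraries. Its log2 fold change was -0.36 ± 0.06 (limma adjusted p = 0.0255), and it passed only without control library 1 or 2 (limma adjusted p over the 6 fits 0.0325 to 0.0810). By −log10 q within each list, its peaks ranked at the 88.7th, 85.2th and 89.4th percentile in knockout libraries. In control libraries they ranked lower, at the 77.4th, 66.5th and 77.8th, so width and rank went opposite ways at this region. The one inside Atf6 (chr1:170812616-170813414) had 348, 250 and 296 bp in knockout libraries and 510, 528 and 747 bp in control libraries. Its log2 fold change was -0.99 ± 0.20 (limma adjusted p = 0.0443), and it passed in 0 of 6 fits that left out 1 library (limma adjusted p = 0.0719 to 0.113).

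**Figure D5:**
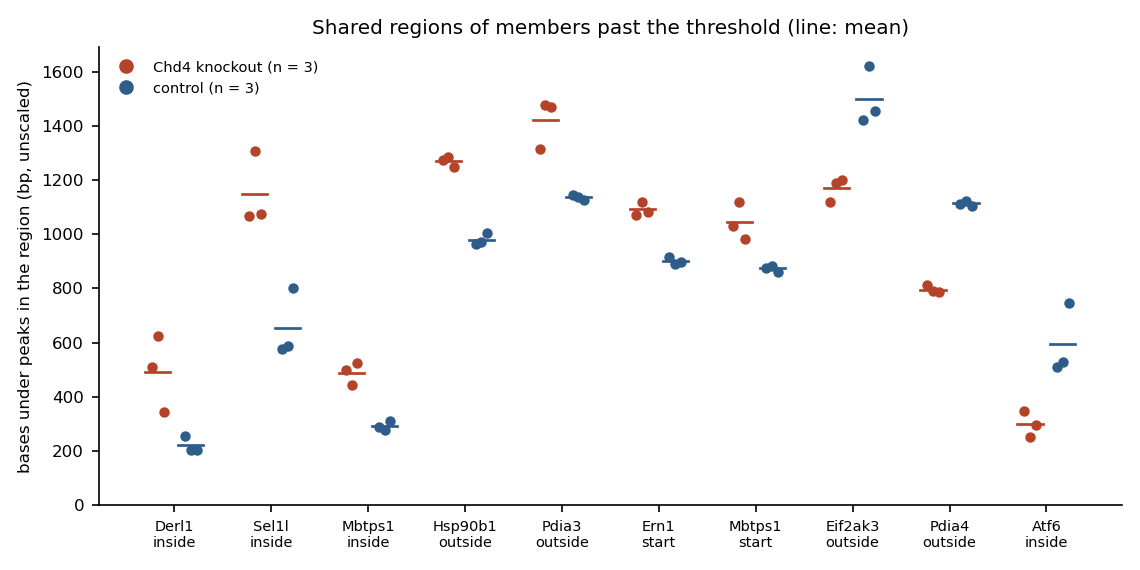
Bases under peaks (bp, unscaled) in the 10 shared regions of members past the threshold, by library, with Chd4 knockout libraries in red to the left of control libraries in blue (points: libraries, n = 3 each; line: mean). The groups do not overlap at any of the 10, with knockout libraries above control libraries at 7 and below them at the regions near Eif2ak3, Pdia4 and inside Atf6; with scaled widths, 3 regions around the members were wider and 18 narrower.

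The rest of the pathway was read from 92 other genes of ER stress and ER folding. Of these, 22 were lower and 0 were higher in knockout libraries by limma adjusted p under 0.05, against 14.6% lower and 7.57% higher of all genes tested, and the median log2 fold change was -0.14, equal to that of the 34 members. Unscaled, 8 were higher (Erp29, Os9, Nploc4, Cebpb, Chac1, Eif4ebp1, Ppp1r15b and Bloc1s1) and 5 were lower, against 14.6% higher and 2.88% lower of all genes, with a median of 0.02. The unscaled log2 fold changes of the 8 included 0.42 at Ppp1r15b (limma adjusted p = 0.0239). They also included 0.35 at Chac1, a target of ATF4 and CHOP (limma adjusted p = 0.00992). At Os9, a lectin of ER-associated degradation, the change was 0.34 (limma adjusted p = 0.0281). Scaled, these 3 were at 0.27, 0.21 and 0.19, none past the threshold (limma adjusted p = 0.0639, 0.0664 and 0.0599). The start was open in all 6 libraries at 90 of the 92. Txndc12, an ER thioredoxin, averaged 3859 ± 148 bp in knockout libraries and 5388 ± 115 bp in control libraries (SD, n = 3 each; log2 fold change -0.45 ± 0.06, limma adjusted p = 0.00353). Eif2ak4, the amino acid sensor GCN2 that also signals through ATF4, averaged 3666 ± 104 bp in knockout libraries and 5192 ± 230 bp in control libraries (log2 fold change -0.47 ± 0.06, limma adjusted p = 0.00356). Ufd1, which helps to pull degradation substrates out of the ER, changed by -0.48 ± 0.06 on the log2 scale (limma adjusted p = 0.00414), the isomerase Pdia5 by -0.46 ± 0.07 (limma adjusted p = 0.00584) and the prolyl isomerase Fkbp2 by -0.30 ± 0.06 (limma adjusted p = 0.0128). Txndc12, Eif2ak4, Ufd1 and Pdia5 were also among the 5 lower unscaled, while Fkbp2 was not.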

How the data were processed

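ATAC-seq peak lists of 3 Chd4 knockout and 3 control libraries were used, grouped by the genotype label. Each library has its own list, not pooled. Peaks were called by MACS2 from shifted Tn5 cut positions, per the names given to peaks in the deposited files, on mm10, per the submitters' processing notes. Caller version, settings, aligner and filters on reads were not given in the sources used here. For every peak, the authors deposited a score, a fold enrichment (ratio), and −log10 values of p and q, which served here to rank or filter peaks inside 1 list and for nothing else. Without read counts, depth is unknown and reads give no interval. The narrowest deposited peaks span 200 bp.

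Gene spans and promoters came from RefSeq (GRCm38.p6). Covered length per territory (span plus 10 kb each side) was scaled to the mean total, 300 bp were added and log2 taken, a scale on which genes with few peaks show too small a change. The test was limma 3.58.1 (R 4.3.3) with an intensity trend, on genes whose mean unscaled length reached 300 bp, with Benjamini-Hochberg adjustment over all of them. Peaks of the 6 libraries were joined into regions where they overlapped by at least 1 bp, and widths of regions called in all 6 were tested likewise, unscaled and without a pseudocount. Sums and joins used Python 3.11.15, pandas 2.3.3 and numpy 2.4.6, and the fits were tested on simulated data. Gained and lost regions, promoter letters and gene lists were counted without a test.

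The members and gene lists were chosen with earlier results of these data known. Values per library are given for members past the threshold, members with a gained, lost or changed shared region, and Hspa5, Xbp1, Atf4, Atf6, Ern1, Eif2ak3, Ddit3 and Ero1b. Of the other ER genes, the 5 with the lowest adjusted p in each direction among those past the threshold were to be named, and none was higher. Genes higher only without scaling were named after their values were seen. Alternatives covered scaling, pseudocount, filters, peak strength, territory size, the way regions were joined, the trend, a replicate block and leaving out each library. Sequences of gained and lost regions were not used here.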

Additional observations from a re-analysis of the deposited data

How the results depend on the processing

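Without scaling, genes numbered 2586 higher and 510 lower (1340 and 2577 scaled), and members 4 higher and 0 lower. With the 50000 strongest peaks, 1543 genes were lower, 0 members higher, 5782 regions gained, 652 shared regions wider and 692 narrower, and around the members 2 gained and 3 wider. Members lower numbered 4 without the filter, over the gene span alone or with 50 kb on either side, and members higher 0 over the span and 2 with 50 kb. Regions of the members were 8 gained and 5 lost over the span alone, 59 and 22 with 50 kb, and 14 lost where a peak had to cover 50% of the region. Scaled widths gave 9342 narrower regions, and 3 wider and 18 narrower around members. Regions called in at least 4 libraries gave 4 wider around members. Leaving out each library gave 698 to 1173 genes higher and 840 to 2225 lower, 1 to 1 member higher and 2 to 5 lower, 17200 to 20030 regions gained and 4769 to 6135 lost, 20 to 26 gained and 9 to 17 lost around members, 895 to 3351 shared regions wider and 617 to 1252 narrower, and 2 to 5 wider and 1 to 3 narrower around members. The 17 lost came without control library 3 and 15 without control library 1. Leaving out a library loosens the rule for gained and lost regions, so their counts there do not check them. The cause of the changes between settings was not tested, beyond the fewer peaks or samples that a setting used. Directions that turned for single members where either value passed the threshold were Eif2ak3 with the strongest peaks (0.14), Hspa5 (-0.24) and Ppp1r15a (-0.72) over the span alone, and Derl1 (0.23) and Creld2 (0.22) with 50 kb. Whether the replicate numbers pair the samples is not known. Deviations of same-numbered libraries correlated at r = 0.13, 0.093 and -0.027 across genes, against -0.161 to 0.083 for libraries of different numbers. With 3 libraries in each group, these values cannot decide it. With a replicate block, 1164 genes were higher and 1937 lower, members 1 and 6, and 0 shared regions were wider or narrower, over all regions as around members. Another 52 values of 21 members turned sign without passing in either setting, all between -0.32 and 0.20. Of the other values for single members and regions, 521 kept direction and call, 108 lost the call and 7 gained it. Peak lists without reads limit what can be said of weak regions: a region missing from a list may have been below the caller's threshold.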
